A study of Mus musculus with 4 samples.

Results

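The genes described here build the primary cilium and the centrosome. They were chosen by name from a table of ribosome footprints at translation initiation sites in mouse neurons: intraflagellar transport genes (Ift), Bardet-Biedl genes (Bbs), the small GTPases Arl3 and Arl6, transition zone genes (B9d, Tctn, Tmem237), cilia and flagella associated genes (Cfap), centrosomal protein genes (Cep), and genes of the gamma-tubulin ring and augmin complexes (Tubg, Tubgcp, Haus). The table holds 6352 transcripts, of which 29 met the rule, each from a different gene. The rule uses names only and no measured value. The footprints came from primary cultured cortical neurons given harringtonine, which stops ribosomes at start codons, at 5 µg/ml for 3 min.

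There were 4 libraries, 1 for each combination of genotype and RNAi: KO SC, WT SC, KO TTC and WT TTC. KO neurons lack Ltn1, the ubiquitin ligase of ribosome-associated quality control, and WT neurons carry it. SC and TTC are the letters in the submitters' codes. The labels conflict on these letters, since titles and characteristics give Ttc3 RNAi for the SC libraries and scrambled RNAi for the TTC libraries, whereas the letters read the other way. Each library is therefore given the genotype of its label and the letters of its code. The study's first supplementary dataset ranks genes by their KO minus WT difference and names no RNAi. It lists Ift74 as lower in KO, and Ift74 had 6 reads in WT SC and 0 in both TTC libraries. That ranking therefore cannot come from the TTC pair alone, but it does not state which RNAi the SC libraries received. All 4 received an RNAi and harringtonine. Age of the cultures, the number of animals behind a library and the deleted part of Ltn1 are not given in the sources used here. With 1 library per condition there were no replicates, so every interval and p for a pair of libraries covers counting error only and compares those libraries, not the conditions.

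A primary cilium is a single antenna on the cell surface that grows from the older centriole of the centrosome, and most cortical neurons carry it. Intraflagellar transport moves cargo along it with the IFT-B and IFT-A complexes, outward by the motor kinesin-2 and back by dynein-2. The BBSome carries membrane receptors out of the cilium, the transition zone is the gate at its base, and the gamma-tubulin ring complex and augmin start new microtubules at and away from the centrosome. RFX transcription factors bind the X-box, a paired motif known from the promoters of many ciliary genes.

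The X-box is shown first because it is the sequence these genes are best known to share and the naming rule did not use it. RefSeq promoters of GRCm38 (250 bases before to 50 after the start of transcription) were found for 23 of the 29 genes. The X-box was searched for on both strands as its paired sites separated by 0 to 3 bases. It was present in 5 of these 23 genes (21.7%), against 103 of 4912 genes of the table with a promoter (2.10%) and 502 of 32851 RefSeq promoter windows (1.53%). Median GC content was 63% in the 29 windows of these 23 genes and 62% in those of the table. Matches of 4 of these genes are printed, each in capitals within 30 bases, 5′ to 3′ on the strand of the gene.
Tctn3 (chr19:40612351-40612380, minus strand): ctcccagcgGTTGCCAGGTAACgggaacca
B9d2 (chr7:25680788-25680817, plus strand): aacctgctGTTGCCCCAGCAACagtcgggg
Cfap298, nearer match (chr16:90934897-90934926, minus strand): gtttgactGTTGCCCCTGGCAACagccact
Cfap298, farther match (chr16:90935016-90935045, minus strand): gggttttgGTTGCCCGGGCAACagctactt
Tmem237 (chr1:59120102-59120131, minus strand): tagtcagcGTTGCCATGGCGACgcctccgg
A match describes the letters only. Levels were measured in RPM, reads scaled to the total reads of the library. The median difference in log2(RPM + 1) over the 5 genes with a match and over the 18 with a promoter but no match was 0.27 and 0 in KO SC against WT SC, and 0 for both in KO TTC against WT TTC. It was 0.72 and 0.06 in KO SC against KO TTC, and 0.34 and 0 in WT SC against WT TTC. These medians were not tested.

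Depth was low. The libraries held 2673112 (KO SC), 2096153 (WT SC), 3655827 (KO TTC) and 1460425 (WT TTC) reads, of which 6.06% to 6.85% lay at the listed start sites. A single read was worth 0.374, 0.477, 0.274 and 0.685 RPM in this order. The 29 genes together held 420 reads in KO SC, 335 in WT SC, 500 in KO TTC and 205 in WT TTC. Ltn1 itself had 37 reads in the library labelled KO SC and 10 in WT SC, and 0 in KO TTC and 2 in WT TTC, so its start site did not follow the genotype label in the SC pair. Ttc3 had 2 and 3 reads in KO SC and WT SC and 0 in both TTC libraries, too few to check the RNAi.

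More transcripts were listed at 0 than counting allows. Among transcripts expected to reach at least 10 reads from the other 3 libraries, 74 were at 0 in KO SC, 63 in WT SC, 84 in KO TTC and 31 in WT TTC, where counting error alone gives under 0.01 in each library. A value of 0 is therefore written as listed at 0, no ratio of RPM is given against it, and the tests below take it as 0 reads. Differences in log2(RPM + 1), the 2-fold rule included, also take it as 0 and are given as descriptions. The cause was not tested.

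The cell types in the cultures were checked with marker genes. All 10 neuronal markers were in the table, with summed levels of 2367 RPM in KO SC, 2098 in WT SC, 2216 in KO TTC and 2004 in WT TTC. None of the 19 markers of multiciliated ependymal cells, whose motile cilia share many of these genes, was in the table. Absence from the table does not show absence from the cultures, since only 45 of 136 listed genes of the same structures were in it. For cycling cells, in which centrosome genes are also used, 3 of 16 markers were in the table, with sums of 26.9, 17.7, 19.7 and 24.7 RPM in the same library order. Of these, Top2a was listed at 0 in both KO libraries and Mcm6 in both WT libraries. Astrocyte markers (8 of 9 in the table) summed to 114 RPM in KO SC against 193 in WT SC, and to 175 in KO TTC against 235 in WT TTC. Oligodendrocyte lineage markers (8 of 12) summed to 11.97 RPM in KO SC against 38.6 in WT SC, and to 46.5 in KO TTC against 93.8 in WT TTC. Microglial markers had 1 of 10 in the table, at 0 to 1.43 RPM. Both glial sums were lowest in KO SC and highest in WT TTC, and their part in the results was not tested.

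Summed over the 29 genes, start site footprints differed little between genotypes. The sums were 157 RPM in KO SC (95% Poisson interval 142 to 173) against 160 in WT SC (143 to 178), and 137 RPM in KO TTC (125 to 149) against 140 in WT TTC (122 to 161). The SC sums were the higher of each genotype, although the intervals overlapped for WT and met between 142 and 149 RPM for KO. In a bulk library, fewer cells of a type and less RNA per cell cannot be told apart. Of the 29 genes, 14 (48.3%) had reads in all 4 libraries, against 58.5% of all transcripts. The other 15 were listed at 0 in 1 library (4 genes), 2 libraries (6 genes) or 3 libraries (5 genes). Mean levels ran between 0.205 and 19.7 RPM with a median of 2.59 RPM, against 2.84 RPM over all transcripts, and 9 genes had a mean of at least 5 RPM. The window counted at each start is not given in the sources used here, so the level of a gene is compared between libraries and not with that of another gene.

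**Figure D1:**
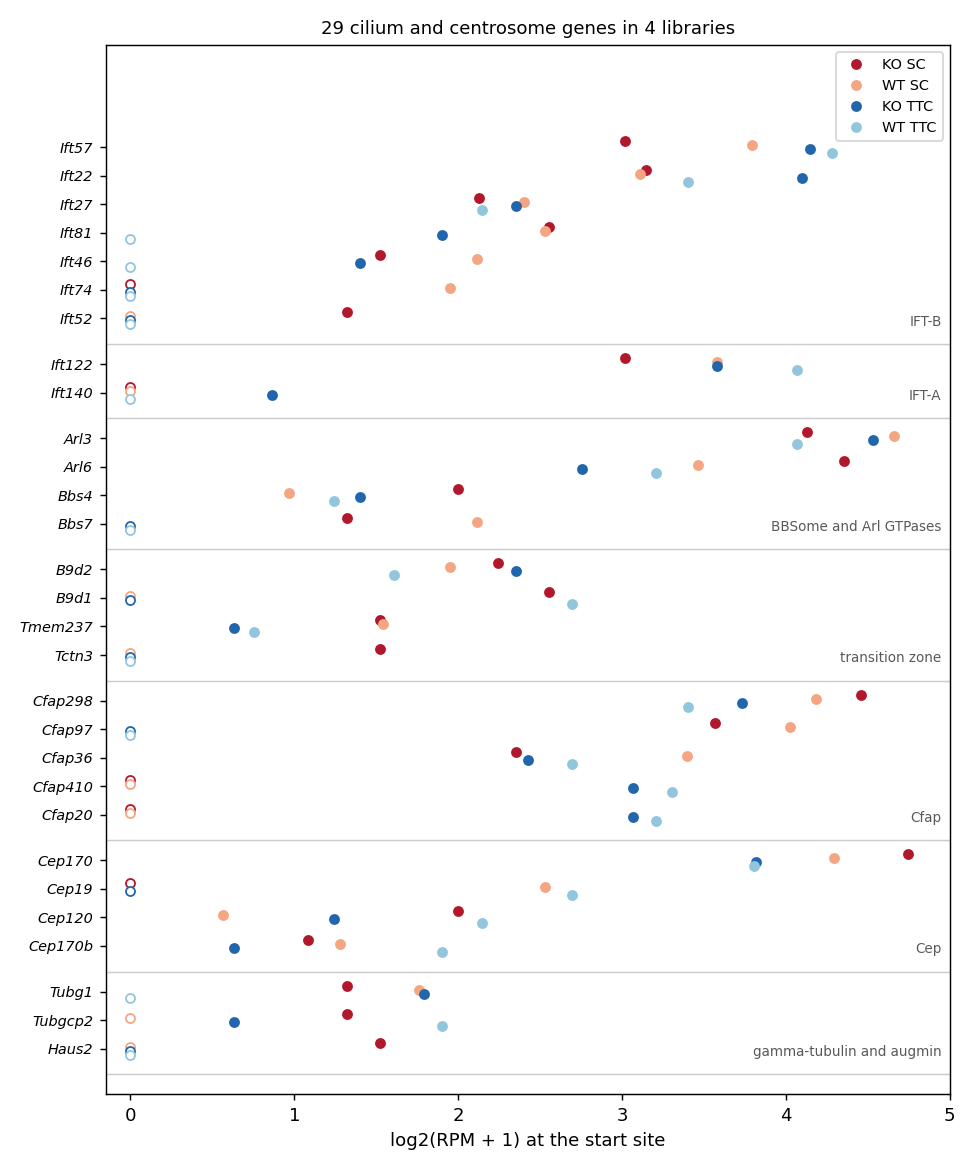
Level of each of the 29 genes in the 4 libraries, as log2(RPM + 1) on the horizontal axis, with genes grouped by role. Each point is 1 library and open points are listed at 0; 14 genes have reads in all 4 libraries, and several others have reads in only 1 or 2.

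Among members with reads in every library, the 2 called lower in KO SC than in KO TTC were IFT-B genes. Ift57, a peripheral subunit of IFT-B (chr16:49699294-49765126), had 7.11 RPM in KO SC, 12.9 in WT SC, 16.7 in KO TTC and 18.5 in WT TTC, from 19, 27, 61 and 27 reads. Both SC libraries were below both TTC libraries, and KO SC was the lowest. Its KO SC to KO TTC ratio was 0.426 (95% interval 0.240 to 0.723, adjusted p = 0.0071, exact binomial test on reads), while the WT SC to WT TTC ratio of 0.697 (0.393 to 1.23) did not pass. Ift57 overlaps the annotated loci Gm52251 and Gm15518. Ift22, a small GTPase of IFT-B (chr5:136908150-136914509), had 7.86 RPM in KO SC, 7.63 in WT SC, 16.1 in KO TTC and 9.59 in WT TTC. KO TTC was the highest of the 4, and the KO SC to KO TTC ratio was 0.487 (0.281 to 0.813, adjusted p = 0.0324, exact test). The call was lost with other scalings of the libraries (adjusted p = 0.0842 and 0.0846).

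The other IFT-B genes were low. Ift27, a Rab-like GTPase needed for the exit of the BBSome, had between 3.37 and 4.29 RPM in all 4 libraries and was the steadiest of the IFT-B genes. Ift81, which binds tubulin together with Ift74, had 4.86 RPM in KO SC, 4.77 in WT SC and 2.74 in KO TTC, and was listed at 0 in WT TTC. That gave it the highest KO TTC difference from WT TTC of the 29 genes (1.90 on the log2(RPM + 1) scale), from 10 reads against 0, which did not pass (adjusted p = 0.321, exact test). Its partner Ift74 had 6 reads in WT SC (2.86 RPM) and was listed at 0 in the other 3 libraries (KO SC against WT SC adjusted p = 0.0785, exact test). Ift46, a core subunit, had 5, 7 and 6 reads in KO SC, WT SC and KO TTC and was listed at 0 in WT TTC. Ift52, which holds the IFT-B core together, had 4 reads in KO SC alone. None of these low genes was called in any pair. Summed over the 7 genes, IFT-B had 26.6 RPM in KO SC (20.7 to 33.5) against 35.8 in WT SC (28.1 to 44.9), and 41.3 in KO TTC (35.0 to 48.4) against 31.5 in WT TTC (23.1 to 42.0).

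Of the IFT-A genes, Ift122, a core subunit, had 7.11 RPM in KO SC, 11.0 in WT SC, 10.9 in KO TTC and 15.7 in WT TTC, from 19, 23, 40 and 23 reads. Both KO libraries were below both WT libraries, by a small margin between KO TTC and WT SC. The ratios were 0.648 (0.334 to 1.24) for KO SC to WT SC and 0.695 (0.406 to 1.22) for KO TTC to WT TTC, and neither passed (adjusted p = 0.494 and 0.504, exact test). Its locus overlaps Mbd4. Ift140, another core subunit, had 3 reads in KO TTC and was listed at 0 elsewhere.

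Arl6 gave the largest difference on the log2(RPM + 1) scale between any pair among members with reads in all 4 libraries (1.60). It is the GTPase that brings the BBSome to membranes (chr16:59612949-59639409), and it had 19.5 RPM in KO SC, 10.0 in WT SC, 5.74 in KO TTC and 8.22 in WT TTC, from 52, 21, 21 and 12 reads. KO SC was the highest and KO TTC the lowest of the 4. The KO SC to KO TTC ratio was 3.39 (2.0 to 5.92, adjusted p = 2.41e-05, exact test), whereas WT SC to WT TTC gave 1.22 (0.573 to 2.72, adjusted p = 0.934). KO SC to WT SC was 1.94 (1.15 to 3.39) and did not pass (adjusted p = 0.0938), although it did with median-of-ratios scaling. KO TTC to WT TTC was 0.699 (0.328 to 1.56, adjusted p = 0.685, exact test). Arl6 overlaps the annotated locus 4930547E14Rik.

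Arl3, the GTPase that releases lipid-anchored cargo inside the cilium, had 16.5 RPM in KO SC, 24.3 in WT SC, 22.2 in KO TTC and 15.7 in WT TTC, from 44, 51, 81 and 23 reads. The genotype order was opposite in the SC and TTC pairs, with ratios of 0.677 (0.442 to 1.03) for KO SC to WT SC and 1.41 (0.876 to 2.34) for KO TTC to WT TTC, and neither passed (adjusted p = 0.299 and 0.494, exact test). The BBSome subunits were low. Bbs4 had 8, 2, 6 and 2 reads (2.99, 0.954, 1.64 and 1.37 RPM in KO SC, WT SC, KO TTC and WT TTC), so both KO libraries were above both WT libraries. Bbs7 had 4 reads in KO SC and 7 in WT SC and was listed at 0 in both TTC libraries. Neither gene was called in any pair.

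At the transition zone, B9d1 was the member whose genotype difference was not alike in the SC and TTC pairs. B9d1 (chr11:61505144-61512931) encodes a B9 domain protein of the complex that gates the cilium. It had 13 reads in KO SC (4.86 RPM) and was listed at 0 in WT SC, whereas it was listed at 0 in KO TTC and had 8 reads in WT TTC (5.48 RPM). In the SC pair it was called higher in KO (adjusted p = 0.0192, exact test) and in the TTC pair lower in KO (adjusted p = 0.0020, exact test), and the difference between the pairs was itself called (adjusted p = 4.28e-05, exact test of the ratio of ratios). All of these rest on listed zeros. Across the table, 8 transcripts were listed at 0 in WT SC and KO TTC with at least 8 reads in both of the others.

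Of the 20 members that could be tested for a difference between the pairs, B9d1 was the only one called, against 3.75% of 4848 transcripts. Arl6, Arl3, Tubgcp2, Cep120 and B9d1 had an unadjusted p under 0.05 in that test. The share of all transcripts under that unadjusted threshold was not computed, so no excess among the members is read from it. The partner of B9d1, B9d2, had 3.74 RPM in KO SC, 2.86 in WT SC, 4.10 in KO TTC and 2.05 in WT TTC, with both KO libraries above both WT libraries and no call. Tmem237, a membrane protein of the same gate, had 1.87 and 1.91 RPM in KO SC and WT SC, and 0.547 and 0.685 RPM in KO TTC and WT TTC, from 1 to 5 reads. Tctn3, a tectonic, had 5 reads in KO SC and was listed at 0 elsewhere, the same values as Haus2. Summed over the 4 genes, the transition zone had 12.3 RPM in KO SC (8.50 to 17.3) against 4.77 in WT SC (2.29 to 8.77), and 4.65 in KO TTC (2.71 to 7.45) against 8.22 in WT TTC (4.25 to 14.4). B9d1 held 13 of the 33 reads in KO SC and 8 of the 12 in WT TTC. Without it the sums were 7.48 RPM in KO SC (4.57 to 11.6) against 4.77 in WT SC (2.29 to 8.77). In the TTC pair they were 4.65 RPM in KO TTC (2.71 to 7.45) against 2.74 in WT TTC (0.746 to 7.01). The order of the TTC pair turned, but the intervals overlapped in both pairs.

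The Cfap genes held 3 of the 5 members whose reads were all in 2 libraries with at least 8 in each, and all 3 split by code. Cfap20, a doublet microtubule protein first described in Chlamydomonas (chr8:95420249-95434869), was listed at 0 in KO SC and WT SC and had 27 reads in KO TTC (7.39 RPM) and 12 in WT TTC (8.22 RPM). Cfap410 (chr10:77978530-77985438), a centrosome and cilium base protein mutated in human retinal and skeletal ciliopathy, showed the same pattern. It was listed at 0 in KO SC and WT SC and had 27 reads in KO TTC (7.39 RPM) and 13 in WT TTC (8.90 RPM). Cfap97 (chr8:46162095-46195590), related to the fly axoneme gene hemingway, had the opposite pattern. It had 29 reads in KO SC (10.8 RPM) and 32 in WT SC (15.3 RPM), and was listed at 0 in both TTC libraries.

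Each of these splits was called by the exact test within KO and within WT. For Cfap20 the adjusted p was 1.73e-05 in KO SC against KO TTC and 0.000744 in WT SC against WT TTC. For Cfap410 it was 1.73e-05 and 0.000353, and for Cfap97 2.53e-09 and 5.63e-06, in the same order of pairs. The pattern was not particular to these genes: 40 transcripts of the table were listed at 0 in both SC libraries with at least 8 reads in both TTC libraries, and 38 the other way. By construction, none of the 3 is a call once transcripts listed at 0 are left out.

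Cfap298 and Cfap36 had reads in every library. Cfap298, needed for dynein arm assembly in zebrafish, had 20.9 RPM in KO SC, 17.2 in WT SC, 12.3 in KO TTC and 9.59 in WT TTC, from 56, 36, 45 and 14 reads. Both SC libraries were above both TTC libraries, and the KO SC to KO TTC ratio of 1.70 (1.13 to 2.58) just missed the threshold (adjusted p = 0.0511, exact test). It was called under both other scalings. On the chromosome it lies between Ltn1 and Ttc3 (chr16:90925811-90934849). Cfap36, which binds Arl3, had 4.12 RPM in KO SC, 9.54 in WT SC, 4.38 in KO TTC and 5.48 in WT TTC. Both KO libraries were below both WT libraries, with a KO SC to WT SC ratio of 0.431 (0.187 to 0.944) that did not pass after adjustment (adjusted p = 0.188, exact test). Cfap36 overlaps Ppp4r3b and Cfap410 overlaps Gm51807.

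**Figure D2:**
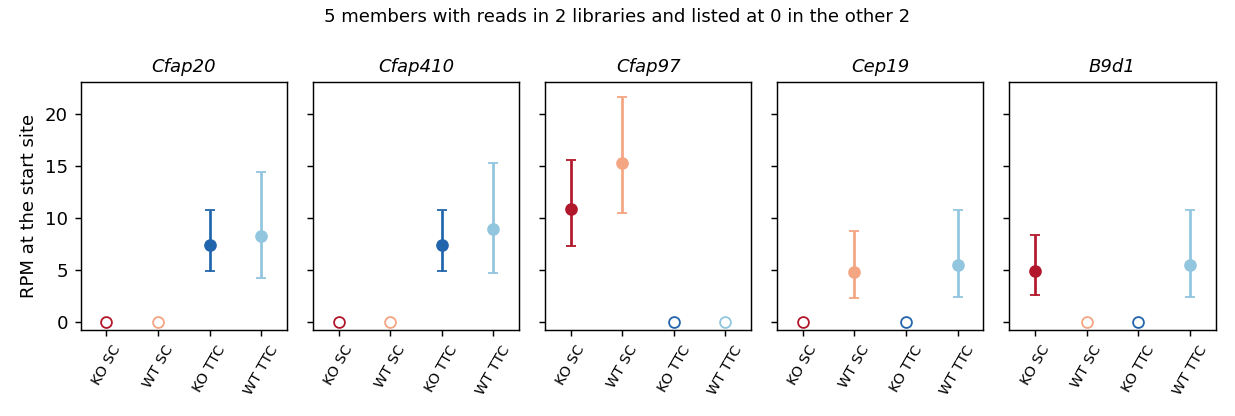
RPM at the start site (vertical axis) of Cfap20, Cfap410, Cfap97, Cep19 and B9d1 in the 4 libraries, with 95% Poisson intervals for libraries with reads and open points for those listed at 0. The zeros of the Cfap genes follow the code, those of Cep19 follow the genotype label, and those of B9d1 follow neither.

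Cep19 was the only member lower in KO than in WT in both pairs by the test. It is a centriole protein that recruits Rabl2 to start intraflagellar transport (chr16:32099789-32108068). It was listed at 0 in KO SC and had 10 reads in WT SC (4.77 RPM), and was listed at 0 in KO TTC with 8 reads in WT TTC (5.48 RPM). The adjusted p was 0.0074 in KO SC against WT SC and 0.0020 in KO TTC against WT TTC (exact test). Among all transcripts, 7 shared this pattern, listed at 0 in both KO libraries with at least 8 reads in both WT libraries, and 29 had the reverse. The library labelled KO SC had more Ltn1 reads than WT SC, so the genotype direction rests on the labels.

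Cep170, a microtubule-binding protein of the subdistal appendages of the older centriole (chr1:176729072-176813979), had 25.8 RPM in KO SC, 18.6 in WT SC, 13.1 in KO TTC and 13.01 in WT TTC, from 69, 39, 48 and 19 reads. Both SC libraries were above both TTC libraries. The KO SC to KO TTC ratio was 1.97 (1.34 to 2.90, adjusted p = 0.0043, exact test), and that of WT SC to WT TTC was 1.43 (0.807 to 2.62, adjusted p = 0.543). Its paralogue Cep170b had 2 to 4 reads in each library (1.12, 1.43, 0.547 and 2.74 RPM in KO SC, WT SC, KO TTC and WT TTC). Cep120, which lengthens centrioles, had 8, 1, 5 and 5 reads (2.99, 0.477, 1.37 and 3.42 RPM in the same order). Neither was called in any pair. The 4 Cep genes summed to 29.9 RPM in KO SC (23.7 to 37.2) against 25.3 in WT SC (18.9 to 33.1), and to 15.04 in KO TTC (11.3 to 19.6) against 24.7 in WT TTC (17.3 to 34.1). Without Cep19 the WT sums were 20.5 RPM in WT SC and 19.2 in WT TTC.

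Genes of microtubule nucleation had few reads. Tubg1, gamma-tubulin itself, had 4, 5 and 9 reads in KO SC, WT SC and KO TTC (1.50, 2.39 and 2.46 RPM) and was listed at 0 in WT TTC, a KO TTC difference from WT TTC of 1.79 on the log2(RPM + 1) scale that did not pass (adjusted p = 0.317, exact test). Tubgcp2, a ring complex subunit, had 4 reads in KO SC, 2 in KO TTC and 4 in WT TTC and was listed at 0 in WT SC. Haus2, an augmin subunit, had 5 reads in KO SC (1.87 RPM) and was listed at 0 elsewhere (KO SC against WT SC adjusted p = 0.321, exact test). None of these 3 genes was called in any pair.

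Set beside the table, calls of the exact test between genotypes were few among the members, as among all transcripts. In KO SC against WT SC, 1 member was lower (Cep19) and 1 higher (B9d1) of 26 with reads, where 4.74% and 2.63% of 5355 transcripts were called. By a 2-fold rule on log2(RPM + 1) without a test, 3 were lower (Cfap36, Ift74 and Cep19) and 7 higher (Bbs4, Tubgcp2, Cep120, B9d1, Ift52, Tctn3 and Haus2), against 10.8% and 10.0%. The 7 higher were a larger share than in the table. Of these, Tubgcp2, B9d1, Ift52, Tctn3 and Haus2 were listed at 0 in WT SC. Bbs4 and Cep120 had 2 and 1 reads in WT SC, against 8 each in KO SC. Among members averaging 5 RPM or more, 0 were 2-fold higher. In KO TTC against WT TTC, 2 were lower (Cep19 and B9d1) and 0 higher of 23 with reads, against 4.41% and 3.14% of 5448. At 2-fold, 4 were lower (Tubgcp2, Cep170b, Cep19 and B9d1) and 3 higher (Ift46, Ift81 and Tubg1), against 9.31% and 14.2%. The median difference in log2(RPM + 1) over the 29 genes was 0 in both pairs, as it was over all transcripts. Among the 9 members averaging 5 RPM or more it was -0.46 in KO SC against WT SC, with -0.11 over all such transcripts, and 0 in KO TTC against WT TTC, with -0.05 over all such transcripts. In KO SC against WT SC, 13 members were lower, 13 higher and 3 equal by any amount, and in KO TTC against WT TTC 12 were lower, 11 higher and 6 equal.

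Between SC and TTC, more members were called within KO, whose 2 libraries held more reads of these genes (420 and 500) than those of WT (335 and 205). Whether the 2 genotypes differ in this was not tested. In KO SC against KO TTC, 4 were lower (Ift57, Ift22, Cfap20 and Cfap410) and 4 higher (Arl6, Cfap97, Cep170 and B9d1) of 27 with reads, where 10.9% and 5.71% of 5623 transcripts were called. At 2-fold, 3 were lower and 7 higher, against 14.1% and 8.25%. The median difference was 0.46 on the log2(RPM + 1) scale over the members and -0.04 over all transcripts, but -0.07 and -0.17 among those averaging 5 RPM or more, so the positive median was not seen among the genes with more reads. In WT SC against WT TTC, 3 were lower (Cfap20, B9d1 and Cfap410) and 1 higher (Cfap97) of 25 with reads, against 7.02% and 3.82% of 5345. At 2-fold, 5 were lower and 6 higher, against 15.9% and 14.7%, and the median was 0 for the members and for all transcripts. Among those averaging 5 RPM or more it was 0.48 for the members and -0.10 for all transcripts. The pairs share libraries, KO SC and WT TTC included, so a low or high library enters 2 of these comparisons.

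The calls also depended on the treatment of spread and zeros. With edgeR's exact test and a common dispersion, which allows for more than counting error, no member was called between genotypes. The dispersion came from the additive fit of genotype and code given below, with 1 residual degree of freedom. Without replicates, it does not measure the spread between replicates. In KO SC against KO TTC that test kept Cfap97, Cfap20, B9d1 and Cfap410 and lost Arl6, Ift57, Cep170 and Ift22, whereas leaving out transcripts listed at 0 kept Arl6, Ift57, Cep170 and Ift22 and took out the others. In WT SC against WT TTC it kept Cfap97, Cfap20 and Cfap410 and lost B9d1. The members that the edgeR test kept were each listed at 0 in 1 library of the pair. Leaving out transcripts listed at 0 therefore removed them by construction and did not test them. Arl6, Ift57, Cep170 and Ift22 were tested under both settings and were called only without the added dispersion.

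**Figure D3:**
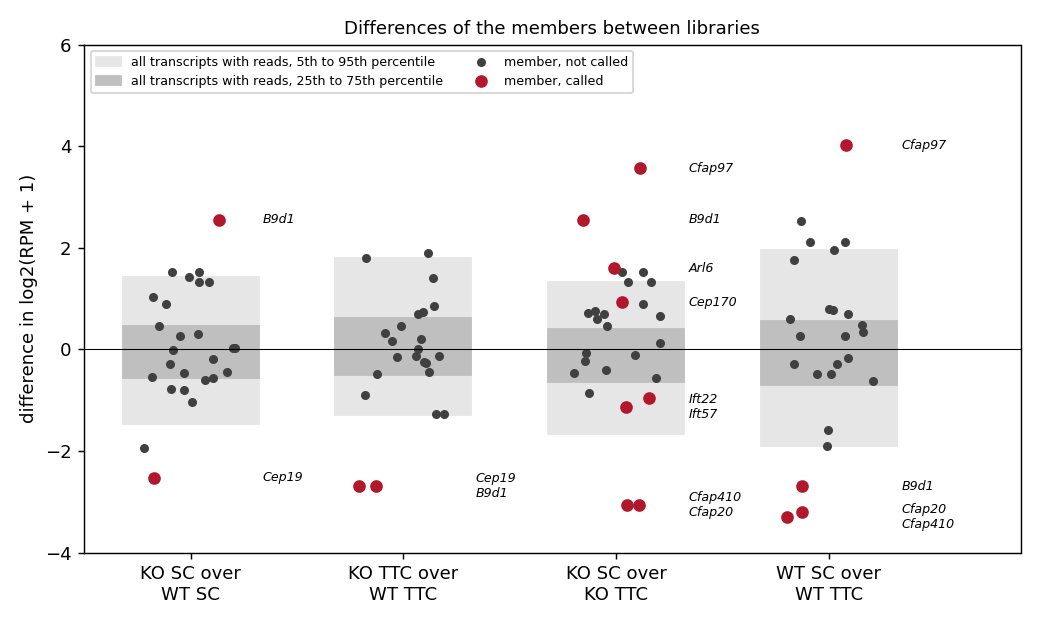
Difference of each member in log2(RPM + 1) (vertical axis) for the 4 pairs of libraries, over the range of all transcripts with reads (grey). Called members are red and named; B9d1 lies above 2 in KO SC over WT SC and below -2 in KO TTC over WT TTC, and most others lie within the grey range.

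Across all 4 libraries, both KO libraries were below both WT libraries for 4 members (Cep170b, Cep19, Cfap36 and Ift122), against 14.9% of 5955 transcripts with reads, and above them for 2 (B9d2 and Bbs4), against 13.2%. The first share is close to that of the table. Both SC libraries were below both TTC libraries for 4 members (Cfap20, Cfap410, Ift22 and Ift57), against 22.1%, and above them for 8 (Arl6, Bbs7, Cep170, Cfap298, Cfap97, Ift46, Ift81 and Tmem237), against 15.7%. The share with both SC libraries higher was above that of the table. Of these 8, Bbs7 and Cfap97 were listed at 0 in both TTC libraries, and Ift46 and Ift81 in WT TTC. Tmem237 had 1 to 5 reads. Of the 4 with both SC libraries lower, Cfap20 and Cfap410 were listed at 0 in both SC libraries. With 2 libraries on each side an exact permutation test cannot give a p below 0.333.

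An additive edgeR quasi-likelihood fit of genotype and code over all 4 libraries, with 1 residual degree of freedom, called 0 of 2808 transcripts for KO over WT (0%) and 0 for SC over TTC (0%). At an unadjusted p under 0.05 there were 193 and 411 transcripts. Of the 14 members tested, 1 had such a p for genotype (Cep19, lower) and 6 for code, 3 lower and 3 higher, the smallest p in edgeR being that of Cfap97 (adjusted p = 0.270). The exact tests above, which take counting error alone, called members that this fit did not.

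**Figure D4:**
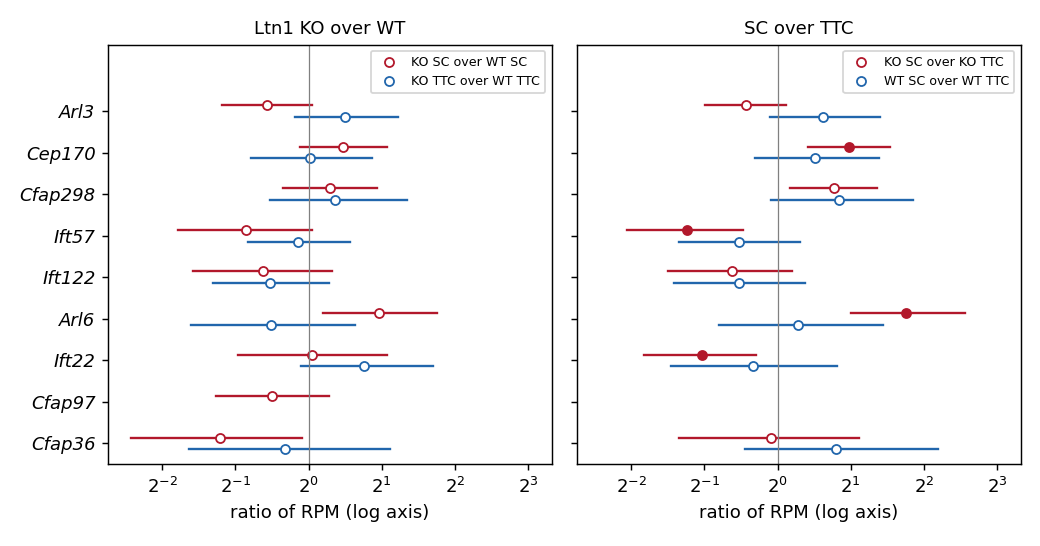
Ratio of RPM on a log axis with its 95% counting interval for the 9 members with a mean of at least 5 RPM, KO over WT at left and SC over TTC at right. Filled points are called; Arl6 and Cep170 lie above 1 and Ift57 and Ift22 below 1 in KO SC over KO TTC, and no KO over WT ratio is called. Cfap97 has no ratio where it is listed at 0.

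Genes of the same structures that the naming rule left out were taken from lists of 136 genes, of which 45 were in the table and 41 had reads. These 41 had reads in at least 1 library, whereas the shares below are of transcripts with reads in the pair. Unc119, Rab3ip and Ttbk2 had no reads in the SC pair, and Dync2li1, Mchr1 and Ccp110 none in the TTC pair. Dync2li1, Rab3ip and Ttbk2 had none in the WT pair. Within SC, KO against WT, 1 of the 41 was lower (Cetn3) and 0 higher, against 4.74% and 2.63% of transcripts. Within TTC 2 were lower (Kifap3 and Dctn1) and 1 higher (Rabl2), against 4.41% and 3.14%. Within KO, SC against TTC, 4 were lower (Unc119, Cetn3, Mapre3 and Dctn5) and 2 higher (Mchr1 and Mapre1), against 10.9% and 5.71%. Within WT, SC against TTC, 2 were lower (Unc119 and Dctn1) and 3 higher (Rabl2, Cluap1 and Mchr1), against 7.02% and 3.82%. None of the 16 listed Hedgehog pathway genes, whose signalling runs through the cilium, was in the table, which does not show that they were not translated.

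Some of these genes work with members. Rabl2, the GTPase that Cep19 recruits, had 4.12 RPM in KO SC, 6.20 in WT SC and 5.47 in KO TTC and was listed at 0 in WT TTC (KO TTC against WT TTC adjusted p = 0.0315, exact test), so it did not share the pattern of Cep19. Cluap1, a further IFT-B subunit, was also listed at 0 in WT TTC and had 6.36 RPM in KO SC, 5.72 in WT SC and 2.46 in KO TTC. Unc119, the carrier that Arl3 unloads, was listed at 0 in KO SC and WT SC with 12 reads in KO TTC and 10 in WT TTC, like Cfap20 and Cfap410 (adjusted p = 0.0169 within KO and 0.00315 within WT, exact test). Mchr1, a receptor of neuronal cilia, had 32 reads in KO SC (11.97 RPM) and 23 in WT SC (11.0 RPM) and was listed at 0 in both TTC libraries, like Cfap97 (adjusted p = 2.46e-10 within KO and 0.000259 within WT, exact test).

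Kifap3, the adaptor of the kinesin-2 motor that drives IFT-B, had 3.37 RPM in KO SC, 3.82 in WT SC, 0.821 in KO TTC and 7.53 in WT TTC (KO TTC against WT TTC adjusted p = 0.00526, exact test). Dctn1, the large subunit of dynactin, had 11.97 RPM in KO SC, 22.4 in WT SC, 17.0 in KO TTC and 43.1 in WT TTC. WT TTC was the highest, and KO TTC was lower than WT TTC by the exact test (adjusted p = 3.24e-05), while KO SC against WT SC did not pass (adjusted p = 0.0746). Cetn3, a centriole calcium-binding protein, had 13.5 RPM in KO SC against 27.7 in WT SC (adjusted p = 0.0135, exact test), and 25.7 in KO TTC against 28.8 in WT TTC. The microtubule end-binding genes split, with Mapre1 at 98.8 and 91.1 RPM in KO SC and WT SC and 62.9 and 64.4 in KO TTC and WT TTC, and Mapre3 at 8.60 and 13.8 RPM in KO SC and WT SC and 19.1 and 13.7 in KO TTC and WT TTC. Against KO TTC, Mapre1 was higher in KO SC (adjusted p = 2.37e-05) and Mapre3 lower (adjusted p = 0.00586), by the exact test. Dctn5, another dynactin subunit, had 40.8 RPM in KO SC against 57.2 in KO TTC (adjusted p = 0.0329, exact test).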

How the data were processed

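Ribosome footprints at start sites were measured in 4 libraries of mouse cortical neurons. The authors deposited RPM, scaled to all reads of a library. Bowtie, SAMtools and bedtools, without versions, and GRCm38/mm10 are named in the submitters' processing notes; window, annotation and strand use are not given in the sources used here. Every value (100%) was a multiple of what 1 read is worth within 1e-06, so whole reads were recovered. Symbols came through transcript identifiers from the study's first supplementary dataset for 6349 transcripts, after 38 broken identifiers were mended; 118 symbols were not in the RefSeq annotation of GRCm38, which gave positions, overlaps and promoters.

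Pairs were compared by an exact binomial test (two-sided) of reads, conditional on library totals, with Benjamini-Hochberg adjustment over transcripts with reads and a threshold of 0.05. The difference between pairs used the exact conditional distribution of the ratio of ratios. edgeR's quasi-likelihood test with library totals and filterByExpr gave the additive fit. Differences are in log2(RPM + 1). Intervals are exact 95% intervals for counting error. Scripts were tested on simulated data. Every member was named, with full values for those with a mean of at least 5 RPM, a call, or 1 of the 2 lowest or highest differences of a pair. Members and lists were chosen with earlier results of these data known. Alternatives were 2 other scalings, 0.1 RPM as pseudocount, only transcripts averaging 5 RPM or more, edgeR's exact test with a common dispersion, TMM factors, no filter, and, chosen after seeing the data, leaving out transcripts listed at 0, or B9d1 or Cep19 from a sum. Python 3.11.15, numpy 2.4.6, pandas 2.3.3, scipy 1.17.1, matplotlib 3.10.9, R 4.3.3 and edgeR 4.0.16 were used. The promoter sequence of 1 gene is not reported here.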

Additional observations from a re-analysis of the deposited data

Results flagged for a closer look

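B9d1 stood out because its genotype difference ran in opposite directions in the 2 pairs. It had 13 reads in KO SC and was listed at 0 in WT SC, and was listed at 0 in KO TTC with 8 reads in WT TTC (adjusted p = 4.28e-05, exact test of the ratio of ratios, 1 library per condition). The cause was not tested.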

How the results depend on the processing

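The number of members called depended on the treatment of zeros, low levels and spread. In KO SC against WT SC, the member called lower (1) and the member called higher (1) became 0 each with a mean of at least 5 RPM, with edgeR's exact test and without transcripts listed at 0, and 2 were called higher with median-of-ratios factors, which added Arl6. In KO TTC against WT TTC, the 2 called lower became 0 under the same 3 alternatives. In KO SC against KO TTC, the 4 called lower became 2 under each of them, and the 4 called higher became 2 with edgeR's exact test and without transcripts listed at 0. The edgeR test left Cfap97, Cfap20, B9d1 and Cfap410, and leaving out zeros left Arl6, Ift57, Cep170 and Ift22. In WT SC against WT TTC, the 3 called lower became 0 with a mean of at least 5 RPM and without zeros, and the 1 called higher became 0 without zeros. In all 4 pairs, each call lost with a mean of at least 5 RPM or without zeros was of a member that the setting left out. Such a loss is by construction and not the result of a test. This holds for Cep19 and B9d1 between genotypes, which only edgeR's exact test among those 3 alternatives tested. The call of B9d1 for the difference between pairs became 0 without zeros, by construction. Over the 4 pairs the 16 calls of members gave, under the 5 alternatives for calls, 47 kept, 33 lost (those of members left out by the setting included) and 4 gained. The additive fit called 0 members under TMM factors, without a filter and without zeros. No paired analysis by replicate number was possible because each condition had 1 library, while the additive fit compared genotypes within each code. The start codon context was not run. Depth limits the 20 genes under a mean of 5 RPM, where a floor of 3 reads is 0.821 to 2.05 RPM.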
